A study of Mus musculus with 12 samples.

Results

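The Hox genes of the mouse were followed in peeled urothelium, the epithelium that lines the bladder, peeled off its underlying tissue, in mice with and without Stag2. All gene symbols made of Hox, a cluster letter from a to d and a number were taken as members. That rule found 39 of the 23337 genes in the deposited count tables: 11 of the HoxA cluster on chromosome 6, 10 of the HoxB cluster on chromosome 11, 9 of the HoxC cluster on chromosome 15 and 9 of the HoxD cluster on chromosome 2. The study compared Stag2-WT mice (WT) with Stag2-KO mice (KO) at 1 week and at 1 month, and the title of the series ties STAG2 to the quiescence of this epithelium. Each of the 4 groups held 3 libraries, and all mice, the controls included, had been fed a TMX-containing diet, with the times counted from its start. TMX is taken to be tamoxifen, which is widely used to induce Cre recombinase. Strain, age, sex, the deleted part of Stag2 and the cell type in which it is deleted are not given in the labels.

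Hox genes encode transcription factors that bind DNA through a homeodomain. They lie in 4 clusters, and the order of the genes along a cluster follows the order in which they are used along the body axis: low numbers are used anteriorly, high numbers posteriorly, and genes of equal number in different clusters are paralogs. The bladder forms at the posterior end of the embryonic gut, where posterior HoxA and HoxD genes are known to act. STAG2 belongs to cohesin, a ring-shaped complex that folds, with CTCF, chromatin into loops; loop borders of this kind divide the Hox clusters into active and silent stretches.

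The transcripts of paralogs are alike where they encode the DNA-recognition helix, which matters for reading counts that are given per gene. The 57 coding bases around that helix are shown for the HoxC genes with the smallest p at 1 week and for Hoxa10 and Hoxa11, the HoxA paralogs with the highest posterior levels. They come from the GENCODE M21 transcripts, 5′ to 3′, and capitals mark the 6 codons of the invariant WFQNRR stretch.
Hoxc9: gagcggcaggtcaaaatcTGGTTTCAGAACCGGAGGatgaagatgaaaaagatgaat
Hoxa10: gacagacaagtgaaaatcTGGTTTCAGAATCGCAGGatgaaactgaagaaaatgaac
Hoxc10: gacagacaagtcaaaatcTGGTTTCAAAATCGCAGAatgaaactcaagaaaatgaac
Hoxa11: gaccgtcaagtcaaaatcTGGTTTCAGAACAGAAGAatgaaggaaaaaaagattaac
Hoxc11: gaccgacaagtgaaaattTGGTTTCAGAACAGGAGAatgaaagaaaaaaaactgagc
On GRCm38, the assembly also called mm10, these stretches are coding parts of the last exon of each gene: chr15:102984053-102984109 (Hoxc9), chr6:52232554-52232610 (Hoxa10), chr15:102970971-102971027 (Hoxc10), chr6:52243402-52243458 (Hoxa11), and chr15:102956603-102956659 (Hoxc11). HoxA genes are on the minus strand and the other genes on the plus strand. Over the whole homeobox of 180 bases, Hoxa10 and Hoxc10 were identical at 80.6% of positions, and Hoxa11 and Hoxc11 at 86.7%. The libraries, however, read the 3′ ends of transcripts. In the last 500 bases of the longest transcript, 1 of the 39 members, Hoxa6, held any run of 50 bases found in another Hox gene (3 such runs, in Hoxb4). Among members, annotated exons overlap on the same strand between Hoxd3 and Hoxd4 and between Hoxc5 and Hoxc10. In Hoxd4, 22 of the last 500 bases lie in same-strand exons of Hoxd3 or of Gm28230, another gene annotated there. The overlap of Hoxc5 and Hoxc10 lies outside the last 500 bases of either. Reads of these pairs could be split or lost in counting.

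Total counts per library were between 5580961 and 9497088, of which the Hox genes held between 2616 and 7262, and a count of 3 stood for 0.316 to 0.538 CPM (counts scaled to a common library size, with TMM factors over the 12 libraries). All replicate pairs differed by more than sampling noise. Stag2 itself was lower in each KO library (59.5 to 72.2 CPM at 1 week and 19.3 to 39.4 CPM at 1 month) than in each WT library of its time (106 to 151 CPM and 45.1 to 64.6 CPM). KO replicate 3 of 1 week stood apart, with Spearman correlations of 0.746 to 0.842 with the other libraries of its time across genes and 24 Hox genes above 3 counts where the other libraries of 1 week had 32. At 1 week, Xist reached 13 counts at most in WT and 6392 to 10406 in KO. Y-linked genes summed to 1360 to 2140 counts in WT and 0 to 4 in KO. For every gene, Hox genes included, genotype and this split in Xist and Y-linked counts therefore cannot be told apart at 1 week. At 1 month, KO replicate 3 had 7764 Xist counts and the other libraries at most 28. Batch 1 of the labels holds all libraries of 1 week, batch 2 replicates 1 and 2 of each genotype at 1 month, and batch 3 replicate 3 of each, so time and batch cannot be told apart either. For WT replicate 3 of 1 month the title and the library name give different animal numbers, and its counts were matched by the library name, so each value of that library carries this doubt. The labelled tissue held its markers: 14 urothelial genes, uroplakins and keratins among them, summed to between 8045 and 29955 CPM.

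The first question was which Hox genes are expressed in this epithelium. Posterior HoxA genes and anterior to central HoxB genes led, HoxD was carried by Hoxd4 and Hoxd9, and HoxC was the lowest cluster. Levels of different genes are CPM of 3′ ends, 1 read per transcript, and are not scaled by length. In WT at 1 week all Hox genes summed to 666 ± 61.8 CPM (SD, n = 3), of which HoxA held 44.1%, HoxB 41.6%, HoxD 13.6% and HoxC 0.678%. By position along the clusters, the 8 anterior genes (positions 1 to 3) held 17.7% of the sum, the 15 central genes (4 to 8) 44.1% and the 16 posterior genes (9 to 13) 38.2%. The total was 586 ± 132 CPM in KO at 1 week, and at 1 month 547 ± 19.8 CPM in WT against 559 ± 34.7 CPM in KO, and these ranges overlap at both times.

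**Figure D1:**
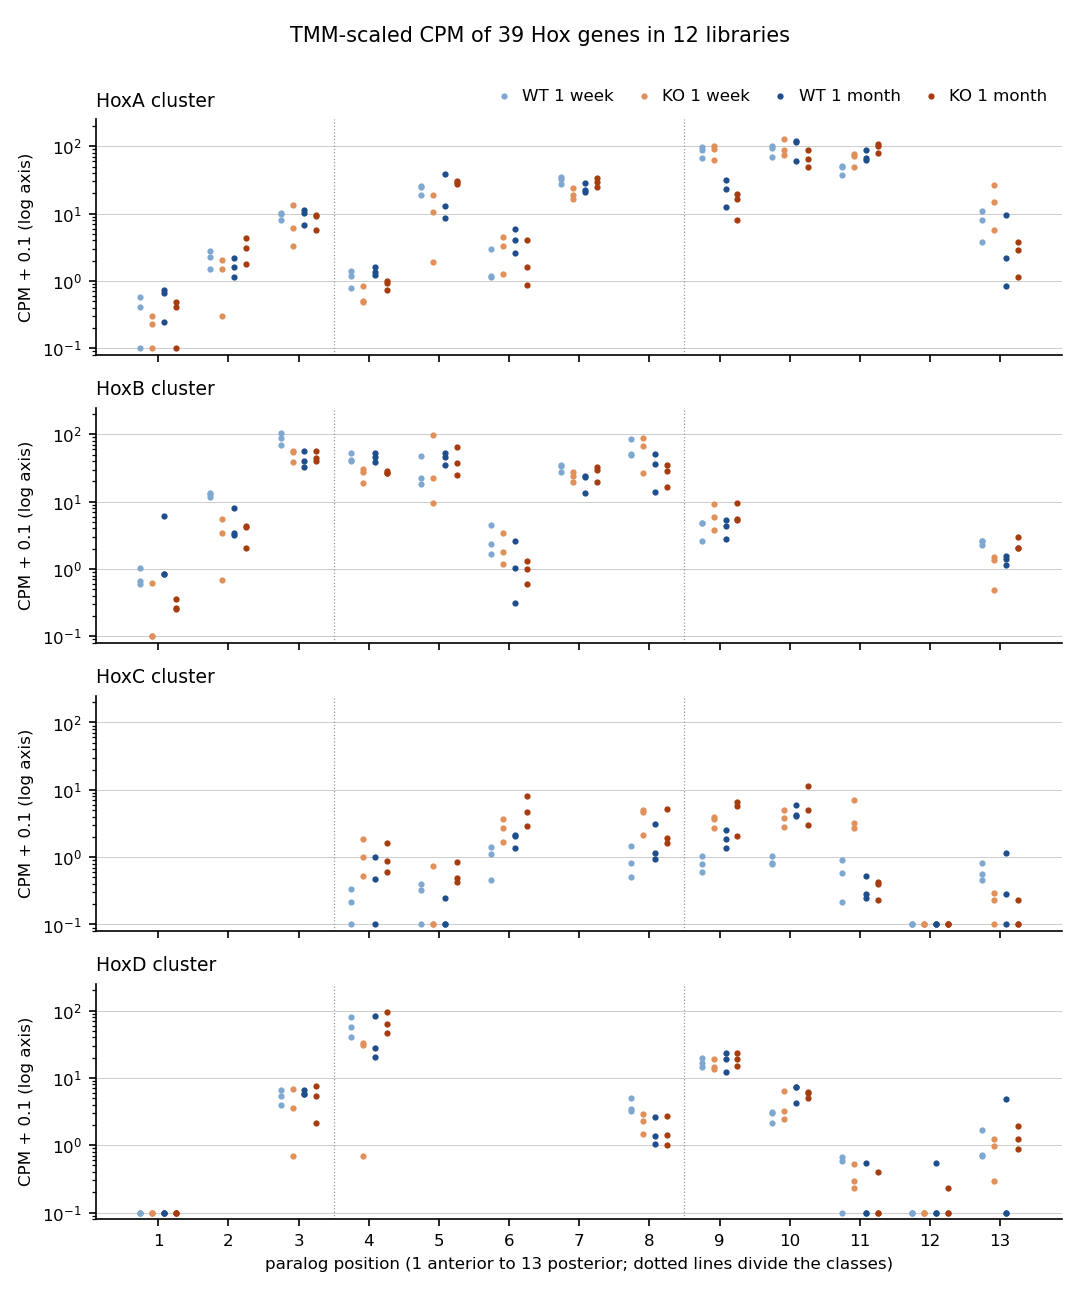
Each point is 1 library; the y axis is TMM-scaled CPM plus 0.1 on a log axis and the x axis the position in the cluster, with 1 panel per cluster and colours for the 4 groups. Hoxa10 and Hoxa11 reach the highest levels together with Hoxb3, while the HoxC panel stays near or below 10 CPM, and Hoxc12 and Hoxd1 are at 0 in each library.

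By mean CPM over the 12 libraries the order was Hoxa10 (87.6), Hoxa11 (70.3), Hoxb3 (56.98), Hoxa9 (51.0), Hoxd4 (48.4), Hoxb8 (45.6), Hoxb5 (39.8), Hoxb4 (35.7), Hoxa7 (26.1), Hoxb7 (25.7), Hoxa5 (20.6) and Hoxd9 (17.5). Neighbours in this order overlap in their libraries, since Hoxa10 ran from 49.8 to 128 CPM and Hoxa11 from 37.5 to 109 CPM. The most posterior genes, which are known for patterning the end of the gut and the genital tract, were lower: Hoxa13 had a mean of 7.45 CPM (0.745 to 26.5), Hoxb13 of 1.74 CPM (0.396 to 2.88) and Hoxd13 of 1.13 CPM (0 to 4.77). Hoxc12 and Hoxd1 had no count in any library, and Hoxd12 had at most 3. Hoxc5, Hoxc13 and Hoxd11 had means of 0.233, 0.268 and 0.213 CPM, under the level that 3 counts stand for. Hoxa4 (0.905 CPM), Hoxb1 (0.893 CPM) and Hoxc4 (0.626 CPM) were also too low to be tested at either time. Between these and the leading 12 lay Hoxa3 (8.55 CPM), Hoxb2 (6.03), Hoxb9 (5.26), Hoxd3 (4.91), Hoxd10 (4.57), Hoxc10 (3.89), Hoxa6 (2.68), Hoxc9 (2.64), Hoxc6 (2.60), Hoxc8 (2.28), Hoxd8 (2.27), Hoxa2 (1.94), Hoxb6 (1.72) and Hoxc11 (1.29). Expression was thus uneven inside each cluster: Hoxb6 lay between Hoxb5 and Hoxb7 on the chromosome with far less RNA than either, and Hoxa6 likewise between Hoxa5 and Hoxa7.

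The next question was whether these genes differ between KO and WT at 1 week, where Xist and Y-linked counts also divide the groups. No Hox gene passed edgeR's quasi-likelihood test at an adjusted p of 0.05 among the 28 tested, against 0.0627% of all 12754 genes. At an unadjusted p under 0.05 there were 8, of which 5, all in HoxC, were higher in KO and 3, all in HoxB, were lower, where 15.5% of all genes had such a p. Of the 28, 14 had CPM values that separated the genotypes completely, 5 higher and 9 lower in KO, against 26.6% of all genes (13.2% higher, 13.4% lower), and without KO replicate 3 the number was again 14, against 37.7%. The median log2 fold change was -0.06 over the 28 members and 0.02 over all genes. By cluster it was 0.04 for 9 HoxA genes, -0.44 for 9 HoxB genes, 2.22 for 5 HoxC genes and -0.46 for 5 HoxD genes. Those 5 HoxC genes passed the low-count filter through the KO libraries, since none had more than 13 counts in a WT library, so their median and number are given as a description only. Of the lower members, Hoxb2, Hoxb13 and Hoxd4 had at most 3 counts in KO replicate 3 and passed through the WT libraries. The numbers of lower members are thus a description too. The test itself left HoxC short of the threshold, but DESeq2 on the same counts called 5 members: Hoxc11 (adjusted p 0.00379), Hoxc10 (0.00474), Hoxc9 (0.00785), Hoxc8 (0.0284) and Hoxb2 (0.0346), where it called 7.5% of all genes. The first 4 of these are HoxC genes that passed the filter through KO, and Hoxb2 passed it through WT, so the number called is a description too.

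The sum of all 9 HoxC genes needs no filter and was 4.04, 4.70 and 4.77 CPM in the WT libraries of 1 week and 21.6, 12.9 and 22.8 CPM in the KO libraries. Each KO library was thus above each WT library, and the raw counts behind these sums were 34 to 47 in WT and 115 to 169 in KO. HoxC made up 0.678 ± 0.0557% of all Hox RNA in WT and 3.23 ± 0.221% in KO (SD, n = 3). No test was made of the sums.

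**Figure D2:**
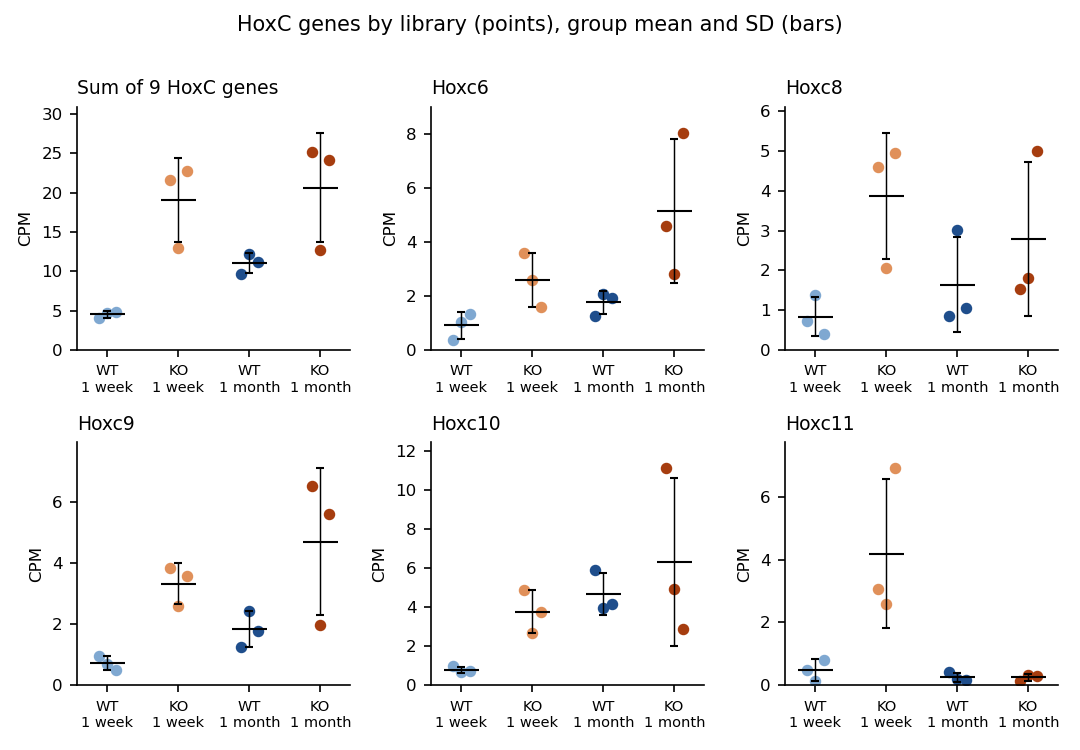
CPM of the 9 HoxC genes summed and of 5 single HoxC genes (y axis, linear and starting at 0) for each library of the 4 groups (x axis), with the group mean and SD as bars. At 1 week KO libraries lie above WT libraries in each of the 6 panels; Hoxc11 is near 0 in both genotypes at 1 month.

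Hoxc9, Hoxc10 and Hoxc11 are posterior members known from the hindlimb and the lower trunk. Hoxc9 had 0.951, 0.688 and 0.508 CPM in WT and 3.84, 2.58 and 3.56 CPM in KO, giving a difference of 2.22 on the log2 scale (SE 0.51; adjusted p by edgeR 0.128). Hoxc10 had 0.951, 0.688 and 0.711 CPM in WT and 4.87, 2.69 and 3.76 CPM in KO (log2 fold change 2.27, SE 0.50, adjusted p 0.122). Hoxc11 had 0.475, 0.115 and 0.812 CPM in WT and 3.07, 2.58 and 6.92 CPM in KO (3.11, SE 0.75, adjusted p 0.139). In all 3 genes the lowest KO library was more than the highest WT library. Of the central genes, Hoxc8 had 0.713, 1.38 and 0.406 CPM in WT and 4.61, 2.05 and 4.95 CPM in KO (2.22, SE 0.64, adjusted p 0.180), and Hoxc6 had 0.357, 1.03 and 1.32 CPM in WT and 3.59, 2.58 and 1.58 CPM in KO (1.53, SE 0.63, adjusted p 0.303). Neither gene overlapped between the genotypes. Hoxc4, which was not tested, had 0.238, 0.115 and 0 CPM in WT and 0.896, 0.431 and 1.78 CPM in KO.

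Markers of the tissue beneath the urothelium differed between the same libraries. The summed CPM of 8 fibroblast markers was 3525 to 5738 in WT and 5147 to 10254 in KO. Their log2 fold changes were above 0 in 8 of 8, beside a median of 0.02 over all genes. Of these markers 0 were called, where 0.0627% of all genes were. For 6 smooth muscle markers the sum was 108 to 284 CPM in WT and 333 to 1065 CPM in KO. For 4 endothelial markers it was 133 to 155 and 218 to 359 CPM, and for 4 markers of glia 7.01 to 9.63 and 17.5 to 46.7 CPM. None of these 22 markers was at 0 in all libraries. The 8 markers of keratinised epithelium summed to 229 to 257 CPM in WT and 279 to 632 CPM in KO, 6 immune markers to 24.2 to 36.5 and 33.8 to 62.3 CPM, and the 14 urothelial markers to 10548 to 12875 and 8045 to 11918 CPM. Directions differed within most of these lists. Log2 fold changes were above 0 in 5 of 6 smooth muscle, 4 of 4 endothelial and 3 of 4 glial markers. They were above 0 in 3 of 5 keratinised markers tested (-2.88 to 10.5), 2 of 3 immune and 4 of 14 urothelial markers. Of 6 markers of male accessory glands, 5 were at 0 in all 12 libraries and the sum was at most 0.102 CPM. In bulk tissue, more cells of a type and more RNA per cell cannot be told apart. In 1 fit the summed fibroblast and smooth muscle level, mostly fibroblast by CPM, was a covariate (the stromal covariate). Endothelial and glial markers were not part of it, and what part admixed tissue had in the Hox values was not tested. With that covariate, the log2 fold change of Hoxc11 was 4.57 (edgeR adjusted p 0.0353), of Hoxc10 2.58 (0.0558) and of Hoxc9 2.38 (0.0686). That fit called 3 members, Hoxc11, Hoxa13 (2.71, 0.0344) and Hoxb5 (2.12, 0.0496), where 14.1% of all genes were called. The only HoxC gene with lower CPM in each KO library was Hoxc13, from at most 7 counts.

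Hoxb2 and Hoxb3, anterior genes that help pattern the hindbrain in the embryo, were lower in each KO library of 1 week. Hoxb2 had 12.96, 13.4 and 11.8 CPM in WT and 5.51, 3.34 and 0.594 CPM in KO (log2 fold change -1.95, SE 0.66, edgeR adjusted p 0.235). Hoxb3 had 69.3, 104 and 88.6 CPM in WT and 56.3, 39.3 and 55.4 CPM in KO (-0.77, SE 0.30, adjusted p 0.283). Hoxb4, the first of the central genes, had 40.9, 40.5 and 53.3 CPM in WT and 30.3, 19.1 and 27.1 CPM in KO (-0.79, SE 0.31, adjusted p 0.283). All KO libraries lay below all WT libraries in these 3 neighbours, which are the 3 lower members with an unadjusted p under 0.05. With the stromal covariate the value of Hoxb4 was -0.36 (adjusted p 0.478). The sum of the 8 anterior genes was 98.2, 136 and 118 CPM in WT and 84.1, 53.9 and 60.1 CPM in KO, again without overlap. At 1 month that sum overlapped, at 60.9 to 80.2 CPM in WT and 59.6 to 79.7 CPM in KO. From Hoxb5 to Hoxb9 the separation at 1 week was smaller or absent. Hoxb13, at the end of the cluster, had 2.50, 2.18 and 2.54 CPM in WT against 1.28, 1.40 and 0.396 CPM in KO at 1 week (-1.14, SE 0.56, adjusted p 0.372). Hoxb7 had 34.7, 27.4 and 33.9 CPM in WT and 27.3, 23.9 and 19.6 CPM in KO (-0.41, SE 0.29, adjusted p 0.507), just without overlap. Hoxb8 had 51.1, 49.4 and 86.6 CPM in WT and 66.6, 26.2 and 87.4 CPM in KO (-0.03, SE 0.48, adjusted p 0.985). Hoxb5 had 18.3, 22.5 and 46.9 CPM in WT and 22.7, 9.58 and 96.7 CPM in KO (0.57, SE 0.81, adjusted p 0.748). In Hoxb5 and Hoxb8 the KO libraries spanned the WT range on both sides, and the value of Hoxb5 rests on KO replicate 3, being -0.89 without it. Hoxb9 (4.02 ± 1.29 CPM in WT, 6.24 ± 2.85 in KO) and Hoxb6 (2.75 ± 1.53, 2.03 ± 1.19) overlapped between the genotypes.

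**Figure D3:**
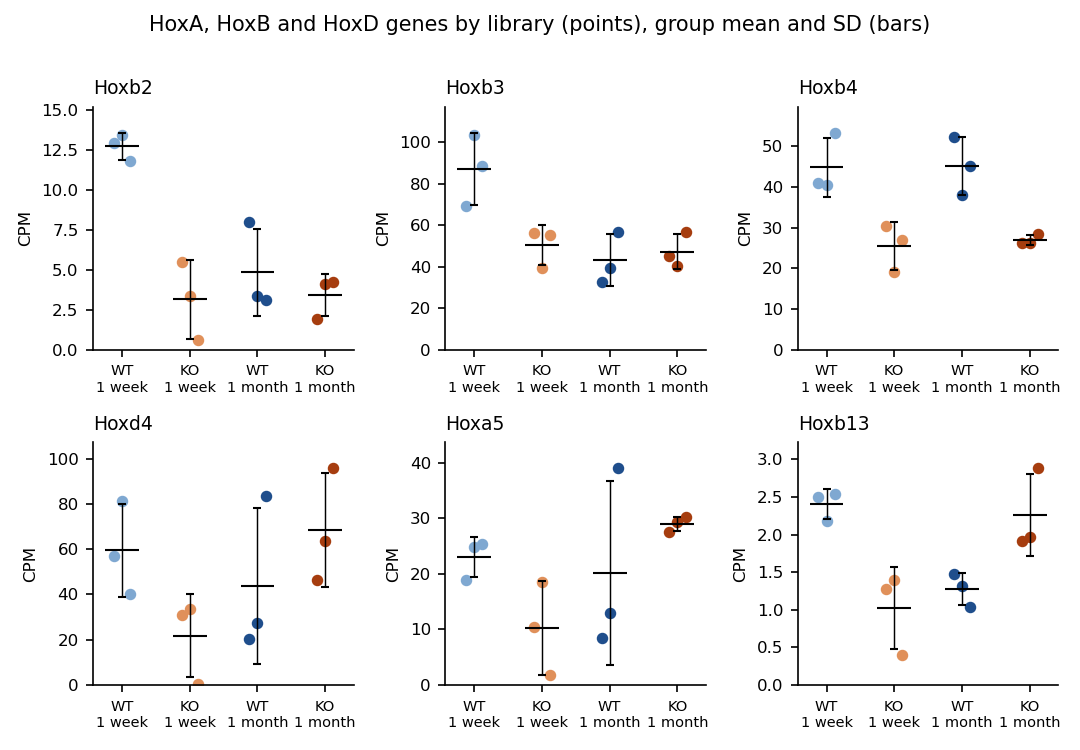
CPM (y axis, linear, starting at 0) of 6 Hox genes of the A, B and D clusters in each library of the 4 groups (x axis), with the group mean and SD. Hoxb4 is lower in each KO library than in each WT library at both times; KO replicate 3 of 1 week has the lowest Hoxd4, Hoxa5 and Hoxb2, and the 2 lowest WT points of Hoxd4 and Hoxa5 at 1 month are both of batch 2.

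In HoxA the posterior genes with the highest levels overlapped between the genotypes at 1 week. Hoxa9 had 87.0, 65.8 and 96.9 CPM in WT and 99.9, 62.3 and 90.02 CPM in KO (log2 fold change 0.04, SE 0.31, edgeR adjusted p 0.960). Hoxa10 had 94.0, 69.9 and 101 CPM in WT and 128, 73.2 and 88.2 CPM in KO (0.15, SE 0.32, adjusted p 0.829). Hoxa11 had 49.0, 37.5 and 51.7 CPM in WT and 70.6, 49.0 and 77.0 CPM in KO (0.53, SE 0.30, adjusted p 0.425). WT replicate 2 and KO replicate 2 had the lowest level of their group in each of these 3 genes. Hoxa13 averaged 7.49 ± 3.66 CPM in WT against 15.7 ± 10.5 CPM in KO, with overlap. Of the central genes, Hoxa5 and Hoxa7 were lower in KO without overlap, while Hoxa4 and Hoxa6 overlapped. Hoxa7 had 34.8, 32.2 and 27.6 CPM in WT and 16.6, 18.5 and 24.1 CPM in KO (-0.65, SE 0.29, adjusted p 0.334), and Hoxa5 had 18.9, 24.9 and 25.5 CPM in WT and 10.5, 18.6 and 1.78 CPM in KO (-1.12, SE 0.69, adjusted p 0.457). The value of Hoxa5 was -0.68 without KO replicate 3, -1.88 without KO replicate 2 and -2.82 with the stromal covariate (adjusted p 0.288, 0.210 and 0.101). As a share of all Hox RNA, posterior genes made up 32.4 to 42.3% in the WT libraries and 49.7 to 53.3% in the KO libraries, a separation that was not tested. The posterior sum itself overlapped, at 265, 205 and 294 CPM in WT against 351, 219.97 and 332 CPM in KO. At 1 month the posterior share overlapped too, at 32.5 to 50.4% in WT and 36.9 to 45.3% in KO.

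In HoxD, Hoxd4 had 56.9, 81.1 and 40.4 CPM in the WT libraries of 1 week and 31.1, 33.4 and 0.594 CPM in the KO libraries (log2 fold change -1.42, SE 0.99, edgeR adjusted p 0.515). Its low value in KO replicate 3 had a parallel in the same library outside the cluster: Atp5g3, a gene for a subunit of ATP synthase that lies beside HoxD, had 9.10 CPM there and 137 to 630 CPM in the other 5 libraries. Without that library the value was -0.90 (adjusted p 0.162), and with the stromal covariate it was -3.84 (adjusted p 0.113). What part the library's quality had in it was not tested. Hoxd9 had 14.5, 16.7 and 19.6 CPM in WT and 14.6, 13.2 and 19.2 CPM in KO (-0.09, SE 0.32, adjusted p 0.903), and the genotypes overlapped. Hoxd8 was lower in KO without overlap (3.80 ± 0.980 against 2.12 ± 0.717 CPM, n = 3 each), and Hoxd3, Hoxd10 and Hoxd13 overlapped.

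At 1 month no member passed edgeR's test either, of 25 tested, against 2.22% of all 12139 genes. At an unadjusted p under 0.05 there were 7, 4 higher (Hoxc6, Hoxc9, Hoxd4 and Hoxa5) and 3 lower (Hoxb4, Hoxa9 and Hoxa10) in KO, against 21.5% of all genes. The genotypes did not overlap for 4 of the 25: Hoxb9, Hoxb13 and Hoxc6 were higher and Hoxb4 lower in KO, against 13.1% of all genes (6.42% higher, 6.71% lower). Hoxb13 had 7 counts in each WT library, and Hoxc6 and Hoxc9 had at most 13. These genes passed the low-count filter only with the KO libraries, so the numbers of higher members are a description only. The median log2 fold change was 0.16 over the members and -0.01 over all genes, and by cluster -0.19 for 9 HoxA genes, 0.03 for 8 HoxB genes, 1.00 for 4 HoxC genes and 0.00 for 4 HoxD genes. DESeq2 called 1 member, Hoxd4 (adjusted p 0.0443), and 6.43% of all genes. edgeR without TMM factors called Hoxd4 too (1.09, adjusted p 0.0460), beside 4.62% of all genes. Without the low-count filter it called 4, Hoxd4 (0.00427), Hoxb1 (0.00747), Hoxa5 (0.0390) and Hoxc6 (0.0421), beside 7.09% of 17990 genes, and Hoxb1 rested on 6.11 CPM in WT replicate 1.

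Hoxb4 had the smallest adjusted p of the members, with 52.2, 38.1 and 45.3 CPM in WT and 26.2, 26.3 and 28.5 CPM in KO, giving -0.73 on the log2 scale (SE 0.22; adjusted p by edgeR 0.0902). Each KO library was below each WT library, and the log2 difference was -0.75 within batch 2 and -0.66 within batch 3. Batch 3 holds 1 library per genotype. These also differ in Xist counts, 11 in WT against 7764 in KO, and in Y-linked counts, 945 against 0. The neighbours that had separated at 1 week did not: Hoxb3 had 32.6, 39.6 and 56.9 CPM in WT and 45.2, 40.1 and 56.6 CPM in KO (0.16, SE 0.21, adjusted p 0.682), and Hoxb2 4.84 ± 2.74 CPM in WT and 3.43 ± 1.31 CPM in KO. Hoxb7 had 23.8, 22.9 and 13.6 CPM in WT and 29.8, 32.2 and 19.3 CPM in KO (0.45, SE 0.23, adjusted p 0.269). Hoxb5 had 52.0, 46.2 and 35.0 CPM in WT and 64.5, 38.0 and 24.7 CPM in KO (-0.11, SE 0.25, adjusted p 0.831), and Hoxb8 51.0, 35.7 and 13.7 CPM in WT and 34.4, 29.0 and 16.4 CPM in KO (-0.22, SE 0.25, adjusted p 0.640). In Hoxb5, Hoxb7 and Hoxb8 replicate 3 of each genotype, the batch 3 library, was the lowest of its group. Hoxb9 had 2.74, 4.32 and 5.22 CPM in WT and 5.24, 9.38 and 5.46 CPM in KO (0.70, SE 0.42, adjusted p 0.356), so the highest WT library was just under the lowest KO library.

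The HoxC sum at 1 month was 9.69, 12.2 and 11.2 CPM in WT and 25.2, 12.7 and 24.1 CPM in KO, from 46 to 75 counts in WT and 77 to 197 in KO. KO was again higher without overlap, though KO replicate 2 was close to WT. Hoxc6 had 1.26, 2.07 and 1.94 CPM in WT and 4.60, 2.80 and 8.04 CPM in KO (log2 fold change 1.49, SE 0.47, edgeR adjusted p 0.105). Hoxc9 had 1.26, 2.44 and 1.79 CPM in WT and 6.52, 1.97 and 5.61 CPM in KO (1.36, SE 0.53, adjusted p 0.169), with KO replicate 2 inside the WT range. With the stromal covariate, which adds a term to a fit of few libraries, Hoxc6 was at 2.50 (adjusted p 0.657) and Hoxc9 at 2.75 (0.631). Hoxc10 had 5.90, 3.94 and 4.17 CPM in WT and 11.1, 4.94 and 2.88 CPM in KO (0.35, SE 0.45, adjusted p 0.680), and Hoxc8 1.63 ± 1.19 and 2.78 ± 1.93 CPM (0.64, SE 0.64, adjusted p 0.583). Hoxc11, separated at 1 week, had 1 or 2 counts in each library of 1 month. At 1 month the fibroblast sum was 9708 to 14406 CPM in WT and 8089.9 to 9935 CPM in KO, and the smooth muscle sum 94.5 to 927 and 151 to 432 CPM. The KO mean was the lower for both stromal lists there, but for smooth muscle this rested on WT replicate 3 of batch 3 (927 CPM). Within batch 2 the smooth muscle sum was 94.5 and 178 CPM in WT and 151 and 432 CPM in KO. The endothelial sum was 94.96 to 150.4 CPM in WT and 167 to 309 CPM in KO.

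Hoxd4 and Hoxa5 depended on which libraries were compared. Hoxd4 had 20.4, 27.2 and 83.4 CPM in the WT libraries of 1 month and 46.3, 63.7 and 95.7 CPM in the KO libraries (log2 fold change 0.86, SE 0.27, edgeR adjusted p 0.0968). Hoxa5, known from lung and foregut, had 8.42, 12.96 and 39.04 CPM in WT and 27.6, 29.3 and 30.2 CPM in KO (0.79, SE 0.36, adjusted p 0.231). WT replicates 1 and 2 of batch 2 were low in both genes and WT replicate 3 of batch 3, the library with 2 animal numbers, was not. With the stromal covariate Hoxd4 was at 0.13 and Hoxa5 at -0.15 (adjusted p 0.99965 for both). The highest adjusted p over the settings at 1 month was this same value for Hoxb4, Hoxa9 and Hoxa10 too. That fit holds genotype, batch and the covariate over few libraries, so it decides nothing about Hoxd4 or Hoxa5. Within batch 2 alone, whose libraries had at most 28 Xist counts, both were called, Hoxa5 at 1.44 (adjusted p 0.00894) and Hoxd4 at 1.24 (adjusted p 0.00974), where 12.2% of all genes were called. Within batch 3, with 1 library per genotype, the log2 difference was -0.37 for Hoxa5 and 0.20 for Hoxd4. Atp5g3 had a like pattern, with 102 and 118 CPM in WT replicates 1 and 2, 373 CPM in WT replicate 3 and 205 to 514 CPM in KO (log2 fold change 0.85, SE 0.22, adjusted p 0.0634). 

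The other members of high level did not separate at 1 month. Hoxa9 had 22.7, 31.6 and 12.5 CPM in WT and 16.1, 19.2 and 8.04 CPM in KO (log2 fold change -0.62, SE 0.26, edgeR adjusted p 0.190). Hoxa10 had 119, 115 and 59.8 CPM in WT and 87.9, 65.5 and 49.8 CPM in KO (-0.49, SE 0.20, adjusted p 0.194). Hoxa11 had 67.6, 89.4 and 62.0 CPM in WT and 109, 79.8 and 101 CPM in KO (0.42, SE 0.22, adjusted p 0.287). Batch 3 held the lowest WT library in all 3 genes. Hoxa7 had 20.6, 22.5 and 28.2 CPM in WT and 28.9, 34.2 and 24.7 CPM in KO (0.31, SE 0.25, adjusted p 0.495), and Hoxd9 23.4, 19.0 and 12.2 CPM in WT and 23.5, 18.9 and 14.7 CPM in KO (0.10, SE 0.24, adjusted p 0.836). The log2 difference of Hoxd9 was 0.00 within batch 2 and 0.26 within batch 3. Of the lower members tested, Hoxa2, Hoxa3, Hoxa6, Hoxa13, Hoxd3 and Hoxd10 overlapped between the genotypes.

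**Figure D4:**
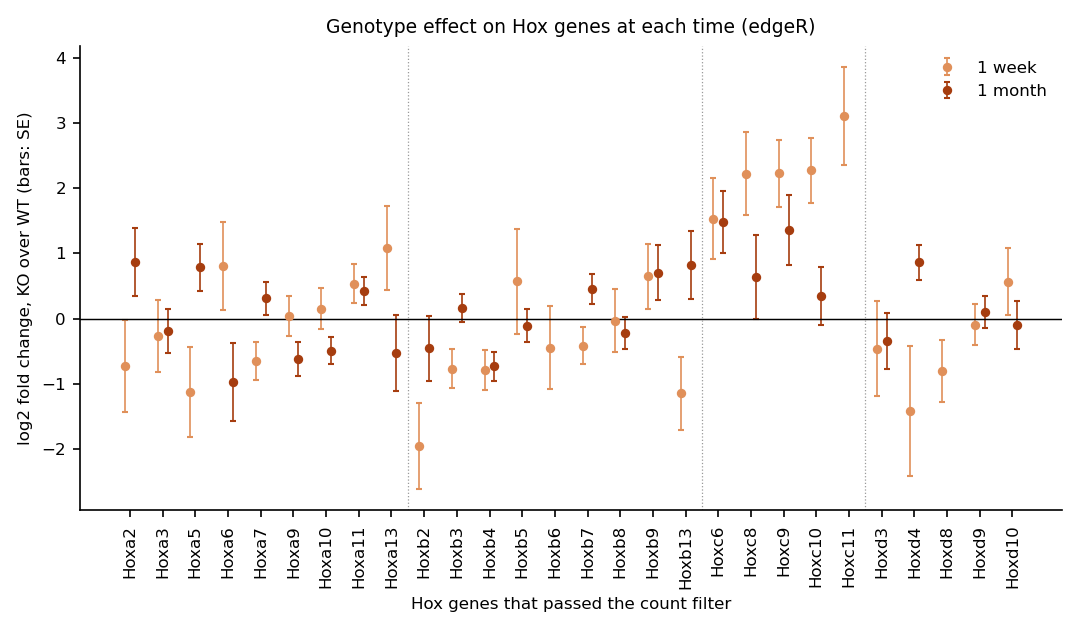
Log2 fold change of KO over WT (y axis) with its SE as bars for the Hox genes that passed the count filter (x axis, in cluster order, dotted lines between clusters), at 1 week and 1 month from edgeR. HoxC genes lie above 0 at both times and Hoxb4 lies below 0 at both; no point passes an adjusted p of 0.05.

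Set side by side, 2 of the 25 members tested at both times separated the genotypes in the same direction both times: Hoxc6 was higher and Hoxb4 lower in each KO library. Of all genes tested at both times 2.01% did so (0.789% higher, 1.22% lower). Hoxb13 separated them in opposite directions, lower in KO at 1 week and higher at 1 month, as did 1.67% of all genes. Hoxc6 passed the low-count filter only with the KO libraries at both times, and Hoxb13 only with its higher group each time. These counts are therefore a description only. The genotype effect of 1 week carries the split in Xist and Y-linked counts. The mean of both genotype effects was then tested with batch as a term over the 12 libraries, a contrast chosen after these values were seen. No member passed it, against 1.11% of 13122 genes, and the smallest adjusted p-values were those of Hoxc9 (log2 fold change 1.77, SE 0.39, edgeR adjusted p 0.0573), Hoxb4 (-0.78, SE 0.18, 0.0717), Hoxc6 (1.48, SE 0.40, 0.107) and Hoxc10 (1.28, SE 0.35, 0.113). Without KO replicate 3 of 1 week, 3 members passed, Hoxb4 (-0.80, adjusted p 0.0206), Hoxc9 (1.75, 0.0274) and Hoxc6 (1.61, 0.0319), where 4.13% of 13408 genes did. Only this library was left out of the contrast, which was itself chosen late, so these 3 calls are a description only.

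An interaction term asked whether KO differed from WT by another amount at 1 month than at 1 week. None of the 29 members tested, and none of all 13122 genes, passed edgeR's adjusted threshold. At an unadjusted p under 0.05 there were 7 members (5 whose log2 fold change was higher at 1 month, 2 whose was lower), against 19.9% of all genes, and DESeq2 called 0 members where it called 6.99% of genes. For Hoxc10 the difference was -1.93 (SE 0.69, adjusted p 0.180), for Hoxc11 -3.05 (SE 1.32, adjusted p 0.232) and for Hoxc6 -0.04 (SE 0.65, adjusted p 0.981). For Hoxb4 it was 0.07 (SE 0.37, adjusted p 0.925), so the effect at 1 month was within 1 SE of that at 1 week.

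Between the times, levels can be described but not tested, since each time has its own batches. Hoxa9 was the 1 member of 29 whose 6 libraries of 1 week (62.3 to 99.9 CPM) did not overlap the 6 of 1 month (8.04 to 31.6 CPM), against 14.3% of all genes (9.36% lower and 4.95% higher at 1 month). Its neighbours Hoxa10 and Hoxa11, next in the cluster, overlapped between the times, with Hoxa10 at 69.9 to 128 CPM at 1 week and 49.8 to 119 CPM at 1 month. Hoxa9 was above Hoxa11 in WT at 1 week (83.2 ± 15.9 against 46.0 ± 7.54 CPM) and below it at 1 month (22.3 ± 9.53 against 73.0 ± 14.5 CPM).

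**Figure D5:**
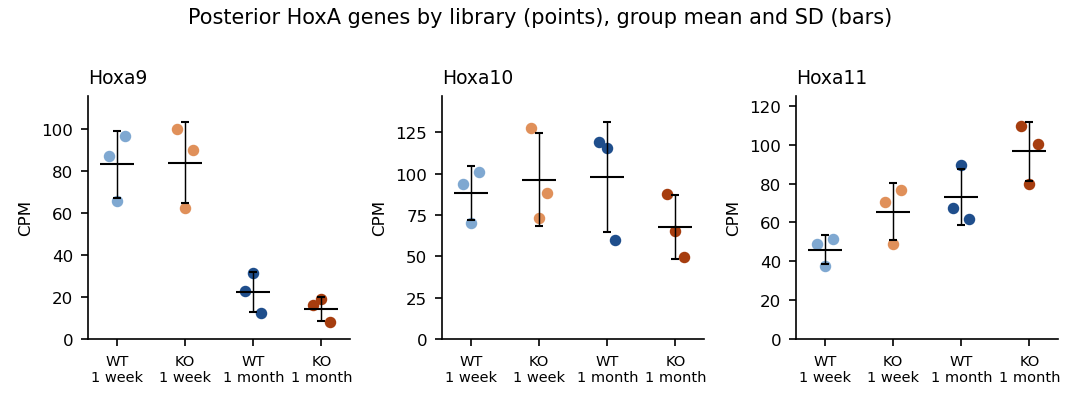
CPM (y axis, linear, starting at 0) of Hoxa9, Hoxa10 and Hoxa11 in each library of the 4 groups (x axis), with the group mean and SD. All 6 Hoxa9 points of 1 week lie above 60 CPM and all 6 of 1 month below 32 CPM, while the other 2 genes overlap between the times.

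Genes known to act on or with Hox genes were read from lists. The cofactors Pbx, Meis and Pknox, which bind DNA together with Hox proteins, had 7 of 9 tested and 0 called at each time, where 0.0627% of all genes were called at 1 week and 2.22% at 1 month. Their medians were -0.31 at 1 week, with 4 of 7 below 0, and -0.18 at 1 month, with 5 of 7 below 0. At 1 week 4 were lower and 1 was higher in KO without overlap, against 13.4% and 13.2% of all genes. Pknox2 had the smallest adjusted p of the list at 1 week (log2 fold change 1.41, SE 0.46, edgeR adjusted p 0.221), and Meis2 (0.76, 0.425) was also above 0, as was Meis3 at 1 month (0.48, 0.415). Of the trithorax and polycomb genes, which keep Hox genes on or off, 29 of 30 were tested at 1 week and 27 at 1 month, with 0 called. Cbx7, a polycomb subunit, was at -1.79 at 1 week (SE 0.39, adjusted p 0.121). Kdm6a, an X-linked histone demethylase, was at 1.17 (SE 0.28, 0.138), beside the Xist counts above. Phc2, also of polycomb, was at 1.96 at 1 month (SE 0.56, 0.0852) with 0.421 and 0.563 CPM in WT replicates 1 and 2, and Wbp7, the symbol used for Kmt2b, at 0.77 (SE 0.25, 0.111).

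Retinoic acid is a known inducer of Hox genes, and 1 gene of the list of Cdx and retinoid signal genes was called, of 11 tested at 1 week (0 called, against 0.0627% of all genes) and 10 at 1 month (1 called, against 2.22%). Aldh1a2, which makes retinoic acid, rose at 1 month by 1.35 on the log2 scale (SE 0.30; adjusted p by edgeR 0.0378). Its libraries held 5.05, 11.8 and 17.3 CPM in WT against 21.6, 22.9 and 41.6 CPM in KO at that time, and 2.85, 5.84 and 2.84 CPM in WT against 11.3, 42.5 and 42.9 CPM in KO at 1 week (3.08, adjusted p 0.110). KO was above WT in each library at both times. The call was lost without batch as a covariate (adjusted p 0.584), with the stromal covariate (0.836) and in 4 of 6 fits without 1 library (up to 0.106), while the log2 fold change lay between 1.06 and 1.70 in all 15 alternatives. Rarg, a retinoic acid receptor, was at -0.74 (SE 0.21, 0.0782) and Cyp26b1, which degrades retinoic acid, at 1.02 (SE 0.34, 0.122) at 1 month, and Aldh1a1 at -1.13 (SE 0.39, 0.239) at 1 week.

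Genes inside or beside the clusters had 20 of 27 tested at each time and 0 called, against 0.0627% of all genes at 1 week and 2.22% at 1 month. The smallest adjusted p-values were those of Hibadh beside HoxA at 1 week (log2 fold change -2.16, SE 0.38, edgeR adjusted p 0.0937), Cbx5 beside HoxC at 1 week (1.01, SE 0.25, 0.141), Skap2 beside HoxA at 1 month (1.02, SE 0.26, 0.0600) and Atp5g3. Cbx5, which encodes a heterochromatin protein, averaged 147 ± 3.18 CPM in WT and 293 ± 41.1 CPM in the KO libraries of 1 week. Of the noncoding RNAs of the clusters 2 of 9 were tested and 0 called: the antisense RNA beside Hoxd3 (1700109F18Rik) was at -1.22 at 1 week (SE 0.47, 0.283) and Hoxa11as at -0.30 at 1 month (SE 0.25, 0.513). The labels describe the kit as sense-stranded with the counting option to match; whether reads of Hoxa11as and Hoxa11 were kept apart was not tested.

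Hoxb4, lower in each KO library at both times, and its paralog Hoxd4, which was so at 1 week alone, differ in the sequence just upstream of their starts. The 250 bases before the start are shown from RefSeq (GRCm38.p6), plus strand, 5′ to 3′, with the letters CCAAT, the core of a common promoter element, in capitals where found on either strand.
Hoxb4 chr11:96318017-96318266: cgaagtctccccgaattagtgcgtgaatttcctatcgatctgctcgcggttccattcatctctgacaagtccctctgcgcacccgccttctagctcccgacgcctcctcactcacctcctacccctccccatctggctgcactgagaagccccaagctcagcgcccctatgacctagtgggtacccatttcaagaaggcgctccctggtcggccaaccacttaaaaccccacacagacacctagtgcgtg
Hoxd4 chr2:74721728-74721977: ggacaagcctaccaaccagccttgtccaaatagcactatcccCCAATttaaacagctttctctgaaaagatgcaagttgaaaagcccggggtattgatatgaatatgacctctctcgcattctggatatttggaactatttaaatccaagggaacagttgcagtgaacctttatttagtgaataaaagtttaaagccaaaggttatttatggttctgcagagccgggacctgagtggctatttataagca
The Hoxb4 stretch is 58.0% G and C with 14 CG pairs and holds no CCAAT, and the Hoxd4 stretch is 40.4% G and C with 3 CG pairs and holds 1. RefSeq listed 24 such windows for 22 of the 39 members. CCAAT was in 58.3% of them and in 33.8% of all 32851 windows. The Pbx and Hox motif TGATNNAT, searched on both strands and free to overlap CCAAT, was in 16.7% and 7.68%. These shares describe the letters in the windows and nothing about binding.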

How the data were processed

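Total RNA of peeled mouse urothelium was sequenced with a 3′ kit that keeps the sense strand, per the labels' protocols. The authors deposited raw counts per gene in a table for each time; the submitters' processing notes name mm10, Bowtie, TopHat, HTSeq and DESeq2, without versions. A 3′ count reads 1 end per transcript, so isoforms with other ends, and genes whose ends are poorly annotated, can be undercounted.

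The 12 libraries were grouped by genotype and time from the labels. Counts were tested with edgeR 4.0.16 in R 4.3.3 (limma 3.58.1): TMM scaling, the default filter on low counts, robust quasi-likelihood F tests, both directions allowed (two-sided). P-values were adjusted by Benjamini-Hochberg across each whole table of tested genes, and 0.05 was the threshold. The test at 1 month had batch as a covariate, and the interaction used the 12 libraries with a term for batch 3. SEs were derived from the F statistics. Sums over members had no test. Within-batch differences are log2(CPM + 0.5). Biological coefficients of variation were 44.4% at 1 week and 24.2% at 1 month, and the script was tested on simulated counts. The p-values set the difference between groups against the spread between libraries within them. At 1 week they cannot tell genotype from the split in Xist and Y-linked counts.

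Some items are not reported here. Library values, fold changes and adjusted p-values are given for members called, for the 12 with the highest mean CPM and for up to 3 more per time with the smallest p; Hoxb2, Hoxc8 and others named beyond these were chosen after their values were seen. The members and lists were chosen with earlier results of these data known. Of the list genes, 11 were not matched to the tables. Alternatives were other scalings and filters, DESeq2 1.42.0, a stromal covariate, no batch term, batch 2 alone and leaving out each library. Gene positions and transcripts come from GENCODE M21 and promoters from RefSeq.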

Additional observations from a re-analysis of the deposited data

Results flagged for a closer look

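Hoxb13, a posterior gene known from the prostate and the distal gut, separated the genotypes in opposite directions at the 2 times. It had 2.50, 2.18 and 2.54 CPM in WT against 1.28, 1.40 and 0.396 CPM in KO at 1 week, and 1.47, 1.31 and 1.04 CPM in WT against 1.92, 1.97 and 2.88 CPM in KO at 1 month. The log2 fold change was -1.14 (SE 0.56, edgeR adjusted p 0.372) at 1 week and 0.83 (SE 0.52, adjusted p 0.382) at 1 month. The difference between the times was 1.97 (SE 0.74), and its test did not pass after adjustment (edgeR adjusted p 0.190). No library had more than 25 counts of the gene. It passed the low-count filter only with the WT libraries at 1 week. At 1 month, with 7 counts in each WT library, it passed only with the KO libraries.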

How the results depend on the processing

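No paired analysis was possible because the replicate numbers are in accession order and the labels give none. At 1 week 0 members were called, but DESeq2 called 5 and the stromal covariate 3. At 1 month 0 were called, but library size alone called 1, no filter 4, DESeq2 1 and batch 2 alone 2, the last beside 12.2% of all genes. Leaving out 1 library gave 0 to 2, with 2 without WT replicate 3 or KO replicate 3. In those fits the batch term takes up the remaining batch 3 library, so they nearly repeat batch 2 alone and add no separate result. The mean effect over both times called 0, and 3 without KO replicate 3 of 1 week, the latter as a description only. The interaction called 0 in all 18 settings. The central sum of KO at 1 month was 265 CPM, and 279.9 CPM under library size alone. Log2 fold changes that turned direction at 1 week were Hoxa9 under library size alone (-0.015) and no filter (-0.013), and under the stromal covariate Hoxb8 (1.05) and Hoxd9 (0.26). Leaving out 1 library at 1 week gave -0.13 to 0.19 for Hoxa9, -0.13 to 0.29 for Hoxa10, -0.46 to 0.30 for Hoxb8 and -0.89 to 1.05 for Hoxb5. At 1 month Hoxb8 turned to 0.010 and Hoxb5 to 0.10 under library size alone, and Hoxb5 to 0.10 within batch 2. Leaving out 1 library gave -0.37 to 0.10 for Hoxb5. The stromal covariate gave Hoxb8 0.10, Hoxa7 -0.23, Hoxa5 -0.15, Hoxb9 -0.16, Meis3 -0.44 and Hoxa11as 0.20. The cause of these changes was not tested. Depth limits single HoxC genes: 34 to 47 counts per WT library of 1 week stand behind the whole cluster.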
